A study of Mus musculus with 18 samples.

Results

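The mitochondrial respiratory chain genes described here were all rows of the deposited expression table whose symbol begins with Nduf, with Sdha to Sdhd, with Uqcr, with Cox4 to Cox8 or with Atp5. The name rule, which uses no measured value, found 92 of 34082 rows. They comprise 40 genes of complex I, 6 of complex II, 8 of complex III, 19 of complex IV and 19 of complex V. Those 19 of complex V include 4 name matches not classed as its subunits, Atp5s, Atp5sl, Atp5l2 and Atp5l-ps1. The rule also took in 4 assembly factors of complex I and 2 of complex II, Sdhaf1 and Sdhaf2. Cox7a2l is counted with complex IV as a related gene. Cox4i1, the common form of the fourth complex IV subunit, was not analysed here. RNA was sequenced from 18 libraries of thymocytes, T cells still developing in the thymus, from C57BL/6 mice at postnatal day 10, with about 10000 cells sorted per population and the RNA amplified before library preparation. Genotype and treatment are not given in the labels, and all 7 populations share the strain, tissue and age. DN1ab, DN1d and ImmV2 have 2 libraries each, and DN1e, DN1 ckit+, DN2 and DN4 have 3 each, where DN stands for double-negative, thymocytes without CD4 and CD8. ImmV2, whose name the sources used here do not spell out, is the population to which the study's design compares the others, and the study is on progenitors of the Tgd17 cells, a gamma delta T cell type that secretes IL-17. The labels tie no replicate to an animal of its own, so each p-value reflects library-to-library spread that may be technical.

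The respiratory chain is a set of protein complexes in the inner mitochondrial membrane. Complexes I and II pass electrons from NADH and succinate to ubiquinone, complex III passes them to cytochrome c and complex IV to oxygen, and complex V, the ATP synthase, uses the proton gradient that complexes I, III and IV build up. Nearly all subunits are encoded in the nucleus, a few in mitochondrial DNA, and dividing thymocytes are known to draw on both glycolysis and respiration.

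The promoters of these genes are known for sites of NRF1, GABPA and YY1, transcription factors of nuclear genes for mitochondrial proteins. RefSeq windows (GRCm38.p6) from 250 bases before to 50 bases after the gene start could be matched to 76 of the 92 genes. Both strands were searched for 7 letters of each factor's known site, GCGCATG (NRF1), CCGGAAG (GABPA) and GATGGCG (YY1). The NRF1 letters were found for 14 of the 76 genes (18.4%), against 4.04% of all 27025 windows of that length. The GABPA letters were found for 18 genes (23.7%, against 9.12%) and the YY1 letters for 10 genes (13.2%, against 3.66%). At least 1 of the 3 motifs was found for 35 genes (46.1%, against 15.2%). Atp5k, Atp5l, Cox6a1, Ndufb6, Sdhb and Uqcr11 held both the NRF1 and the GABPA letters, and sites of different motifs overlapped in none of the 76 genes. The base composition of these windows also differed, with a median GC content of 56.8% in the 250 bases upstream against 52.0% over all windows, and its part in the motif counts was not tested. A match describes the letters and is not evidence of binding. The 250 bases upstream are shown 5′ to 3′ for Cox6b1, Atp5e and Atp5k, which were at 1 FPKM or more (fragments per kilobase of transcript, scaled to library size, the deposited unit) in every library, and for Sdhaf1, which had the smallest p between populations. Capitals mark the GABPA letters in Cox6b1 and Atp5e and, in Atp5k, overlapping NRF1 matches on both strands. In Sdhaf1 the GABPA letters occur only in the last 50 bases of the window, which are not printed.
Cox6b1 (chr7:30626115-30626364, minus strand): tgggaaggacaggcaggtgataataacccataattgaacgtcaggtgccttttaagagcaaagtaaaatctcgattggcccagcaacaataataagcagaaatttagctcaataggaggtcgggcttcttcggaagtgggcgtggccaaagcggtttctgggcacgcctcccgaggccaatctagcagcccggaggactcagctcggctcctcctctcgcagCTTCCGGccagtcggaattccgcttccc
Atp5e (chr2:174464102-174464351, minus strand): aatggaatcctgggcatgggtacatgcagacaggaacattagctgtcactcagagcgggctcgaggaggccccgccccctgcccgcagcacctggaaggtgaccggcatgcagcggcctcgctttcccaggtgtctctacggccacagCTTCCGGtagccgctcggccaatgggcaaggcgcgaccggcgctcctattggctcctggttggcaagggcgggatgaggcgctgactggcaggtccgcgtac
Atp5k (chr5:108434400-108434649, minus strand): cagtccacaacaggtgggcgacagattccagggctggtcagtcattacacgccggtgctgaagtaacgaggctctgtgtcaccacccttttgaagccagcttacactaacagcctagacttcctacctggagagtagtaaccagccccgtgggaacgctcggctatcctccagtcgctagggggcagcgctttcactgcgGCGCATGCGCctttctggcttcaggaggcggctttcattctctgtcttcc
Sdhaf1 (chr7:30322376-30322625, minus strand): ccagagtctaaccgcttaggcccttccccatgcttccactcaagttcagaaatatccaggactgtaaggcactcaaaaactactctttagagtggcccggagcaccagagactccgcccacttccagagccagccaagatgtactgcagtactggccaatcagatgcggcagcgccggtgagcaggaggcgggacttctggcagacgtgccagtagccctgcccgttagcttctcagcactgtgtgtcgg

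The respiratory chain genes were detected more often than the table as a whole, but patchily. Between 45 of the 92 genes (DN1d 2, the second DN1d library, and DN1e 2) and 82 (DN4 3) reached 1 FPKM in a library, with a median of 56. That is 48.9% to 89.1% of the genes, against 30.2% to 31.2% of all rows. At 10 FPKM the share was 31.5% to 73.9%, against 12.5% to 12.9% of all rows. The lowest value of the table is 0.01 FPKM, and between 7 genes (DN4 3) and 30 (ImmV2 1) were listed at it. Such a listing is not taken as absence, since Actb, which every cell uses, reached 1 FPKM in only 7 of the 18 libraries. Without read counts, library depth is unknown. In sorted bulk samples, fewer cells of a type and less RNA per cell cannot be told apart.

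DN4 3 stood apart from the other 17 libraries. Only 10 of the 92 genes were under 1 FPKM in it, against 32 to 47 in each of the others. The median level of the 92 genes was 28.7 FPKM in DN4 3, and the median of these library medians was 4.7 FPKM over the 18 libraries. The median over all rows was 0.0466 FPKM in DN4 3 and at most that elsewhere. How the values were normalized is not stated. If they were set to a shared scale, the median over all rows could not show a wider rise. There were 13 genes at 10 FPKM or more in DN4 3 and under 1 FPKM in both DN4 1 and DN4 2, among them Ndufs1, Uqcrc1, Cox7c, Atp5g3 and Atp5j. Other metabolic genes were also detected more widely there: 18 of 19 tricarboxylic acid cycle genes reached 1 FPKM, against 6 to 17 in the other libraries, and 20 of 23 glycolysis genes, against 11 to 18. Most differences of DN4 are therefore given with and without DN4 3. All 10 T lineage markers were in the table. Between 4 and 8 of them reached 1 FPKM in the DN1 and DN2 libraries, 8 to 9 in ImmV2 and 6 to 10 in DN4. The 7 B cell markers summed to 1001 to 1250 FPKM in DN1d and at most 237 FPKM in the other libraries, a gap carried by Igkc, an antibody light chain, with 843 and 1205 FPKM in DN1d and at most 78.2 FPKM elsewhere. The other 6 markers summed to 45.4 to 157 FPKM in DN1d, within the 1.05 to 222 FPKM of the other libraries.

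**Figure D1:**
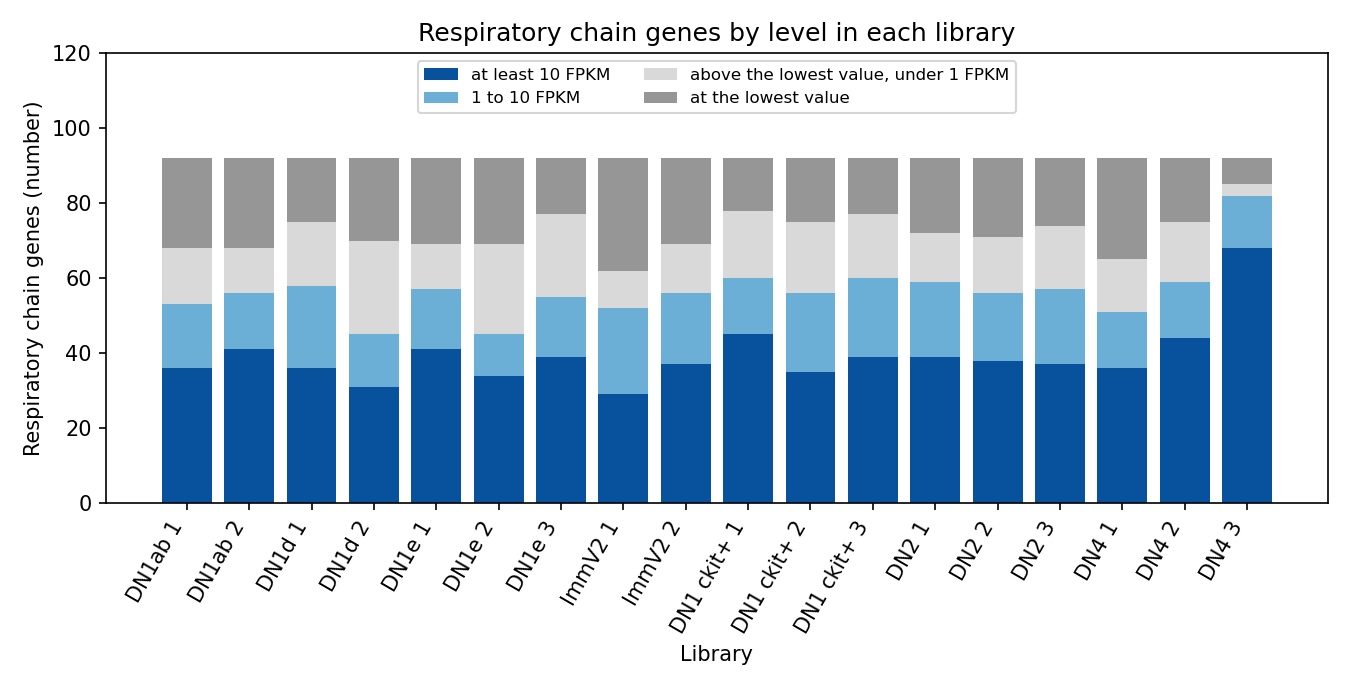
Number of the 92 respiratory chain genes (vertical axis) in 4 classes of level in each of the 18 libraries (horizontal axis). DN4 3 has 82 genes at 1 FPKM or more, above the 45 to 60 of the other libraries.

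Libraries of the same population often disagreed. Among genes with at least 10 FPKM in some library of a population, the share that was at 0.1 FPKM or less in another library of that population ran from 10 of 48 genes in DN1d (20.8%) to 26 of 63 in DN2 (41.3%). Over all rows the same share was 41.2% in DN1d and 54.2% in DN2, and it was higher over all rows than over the respiratory chain genes in each of the 7 populations. No such split was seen for 27 of the 92 genes. Cox6a1, the common form of a complex IV subunit, was split in 5 populations, and Atp5g1, Ndufa6, Ndufab1 and Sdhd were split in 4.

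The steadiest genes came from complexes I, IV and V. Atp5e, Atp5k, Cox6b1, Cox7b, Ndufb3, Ndufc1, Ndufs5 and Ndufs8 were at 1 FPKM or more in all 18 libraries, 8.7% of the 92 genes against 1.35% of all rows. Atp5e, Cox6b1 and Ndufc1 were at 10 FPKM or more in all of them, 3.26% against 0.123%. No gene of complex II or III was in either group.

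Complex I takes electrons from NADH. Its 7 core subunits of the Ndufs and Ndufv families were at 1 FPKM or more in 72.2% of their values, its 29 accessory subunits in 67.0% and its 4 assembly factors, Ndufaf1 to Ndufaf4, in 51.4%. Ndufs8, an iron-sulphur subunit, had 30.9 and 11.2 FPKM in DN1ab, 6.13 and 19.6 in DN1d, 41.1, 29.4 and 16.4 in DN1e, and 1.25 and 5.91 in ImmV2. It had 6.99, 3.55 and 6.34 FPKM in DN1 ckit+, 11.1, 4.06 and 9.34 in DN2, and 16.6, 7.34 and 11.2 in DN4. The ImmV2 libraries thus lay below all DN1ab, DN1d, DN1e and DN4 libraries and overlapped those of DN1 ckit+ and DN2. DN1e exceeded ImmV2 by 2.83 ± 1.03 (SE) in log2(FPKM + 1), with a Benjamini-Hochberg adjusted limma p of 0.326. Ndufs1, the largest core subunit, was under 1 FPKM in all libraries but 3, where it had 108 (DN1 ckit+ 1), 46.9 (DN2 1) and 17.6 FPKM (DN4 3).

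Among the accessory subunits, Ndufb5, Ndufa1 and Ndufa7 had the highest mean log2 levels. Ndufb5 ranged from 37.9 to 133 FPKM in 17 libraries and was 0.0575 FPKM in DN1ab 1. Ndufa1 was 235 and 211 FPKM in DN1 ckit+ 2 and 3, its highest values, and 0.0876 FPKM in DN2 2. Ndufa7 was listed at the lowest value in DN1e 1 and ImmV2 1 and reached 303 FPKM in DN2 2. All 3 genes were thus at 10 FPKM or more everywhere but in 1 or 2 libraries. Ndufb10 differed more between populations, with both ImmV2 libraries at the lowest value, 28.3, 7.96 and 219 FPKM in DN1 ckit+ and 30.6, 43.6 and 27.2 FPKM in DN4. No fold is given for Ndufb10 against ImmV2, and its limma adjusted p was 0.316 for DN1 ckit+ and 0.375 for DN4 (limma adjusted p = 0.513 without DN4 3).

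Complex II, succinate dehydrogenase, is also an enzyme of the tricarboxylic acid cycle and has no subunit encoded in mitochondrial DNA. Sdha, its flavoprotein, ranged from the lowest value (DN2 2 and DN4 1) to 146 FPKM (ImmV2 2), and had 0.579, 4.36 and 3.55 FPKM in DN1e. Both ImmV2 libraries, at 38.3 and 146 FPKM, lay above the DN1e libraries, with a log2 difference of -4.49 ± 1.93 (SE) that did not pass the test (limma adjusted p = 0.433). Sdhb, the iron-sulphur subunit, reached 1 FPKM in 14 libraries and at most 47.8 FPKM. The membrane anchors Sdhc and Sdhd reached it in 8 and 12 libraries. Sdhaf2, which helps to attach FAD to Sdha, reached at most 14.1 FPKM.

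Sdhaf1 was the respiratory chain gene with the clearest difference between populations, and the only member called in the 9 comparisons and the F test as set up here. Other members were called only under alternative settings. Its product helps to insert iron-sulphur clusters into Sdhb. Sdhaf1 had 665, 427 and 337 FPKM in DN1e, 118 and 99.6 in DN1ab, and 70.1 and 46.5 in DN1d. It had 105, 6.59 and 25.9 FPKM in DN1 ckit+ and 0.757, 7.26 and 25.6 in DN2. ImmV2 had 0.314 and 0.113 FPKM, and DN4 had 1.41 FPKM in DN4 3 and the lowest value in the other two libraries. By median the order was DN1e, DN1ab, DN1d, DN1 ckit+, DN2, ImmV2 and DN4. The libraries of DN1e and DN1ab did not overlap, nor did those of DN1ab and DN1d or of DN2 and ImmV2, while the other neighbours in that order did. A moderated F test in limma over the 7 populations called Sdhaf1 (Benjamini-Hochberg adjusted p = 0.00426), 1 of the 89 members tested, against 1.40% of all genes tested.

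In DN1e against ImmV2, Sdhaf1 was higher by 8.57 ± 1.28 (SE) in log2(FPKM + 1), with a limma adjusted p of 0.00474. The background in that comparison was 0.591% of genes called in either direction and 0.302% called higher. The call ended when only the libraries of DN1e and ImmV2 entered the fit (limma adjusted p = 0.175), and over all 27 alternatives the adjusted p lay between 0.00221 and 0.175. Sdhaf1 was also higher by 6.50 ± 1.40 in DN1ab and by 5.59 ± 1.40 in DN1d than in ImmV2, and neither passed the test (limma adjusted p of 0.057 and 0.155). Leaving out DN1 ckit+ 2, DN2 1 or DN2 3 brought DN1ab past the threshold (limma adjusted p of 0.0485, 0.0381 and 0.0467). Some myeloid genes were also high in DN1e. Lyz2, Fcer1g, Ctss and Tyrobp, 4 of the 10 myeloid markers, lay above ImmV2 in DN1e without overlap, Csf1r lay below it and the other 5 overlapped. The 10 myeloid markers summed to 774 to 1278 FPKM in DN1e, with 6 to 8 of them at 1 FPKM or more and none at the lowest value in all 3 libraries. They summed to 2.77 to 122 FPKM in ImmV2, with 1 to 5 at 1 FPKM or more and with Fcer1g, Tyrobp and Cd14 at the lowest value in both libraries. The sums were 84.9 to 167 FPKM in DN1ab (5 to 8 markers), 27.2 to 113 in DN1d (2 to 6), 43.6 to 124 in DN1 ckit+ (4 to 6), 15.3 to 118 in DN2 (2 to 6) and 7.72 to 39.0 in DN4 (2 to 5). Lyz2, the lysozyme of macrophages, was 406, 290 and 226 FPKM in DN1e and at most 0.149 FPKM in ImmV2, while Csf1r, a receptor of macrophages, was at most 0.0837 FPKM in DN1e and 0.569 and 1.17 FPKM in ImmV2. The part of myeloid cells in the Sdhaf1 result was not tested.

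**Figure D2:**
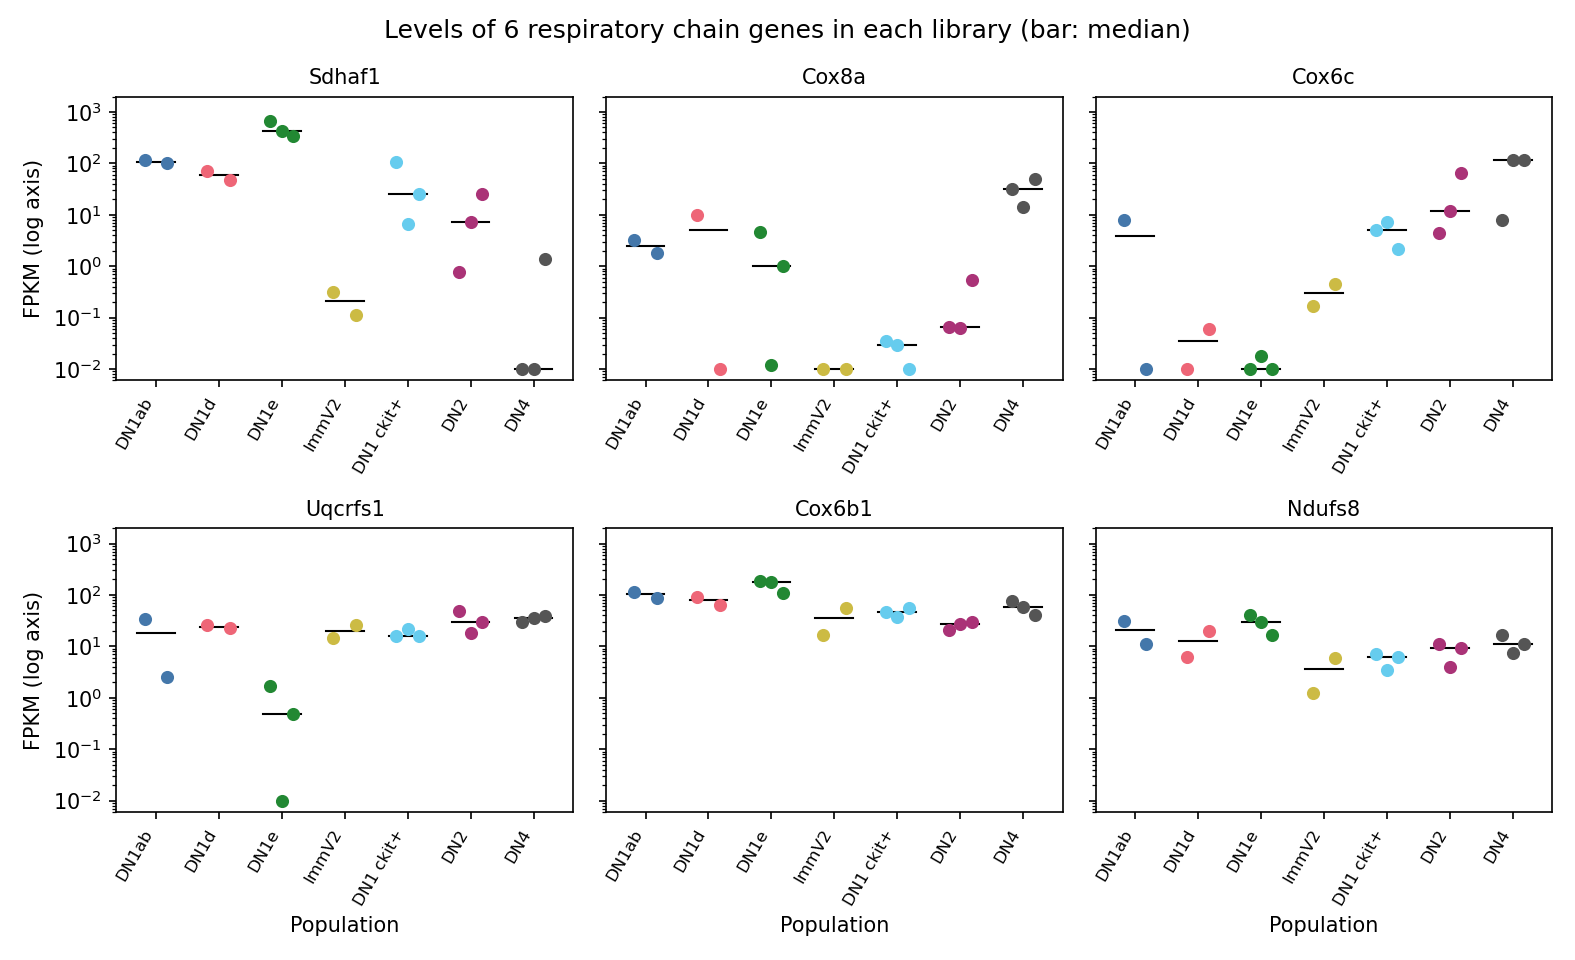
FPKM on a log axis (vertical) of 6 respiratory chain genes in each library (points) by population (horizontal), with the median as a bar; 0.01 FPKM is the lowest value of the table. Sdhaf1 is highest in DN1e, at 337 to 665 FPKM, Cox8a is highest in DN4, at 14.5 to 49.7 FPKM, and Cox6b1 stays between 16.3 and 186 FPKM.

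Complex III carries electrons from ubiquinol to cytochrome c, and its 8 members were at 1 FPKM or more in 60.4% of their values. Uqcrq and Uqcr10, small subunits, and Uqcrfs1, the Rieske iron-sulphur protein, had the highest mean log2 levels. Uqcrfs1 had 1.69, 0.01 and 0.474 FPKM in DN1e, 34.0 and 2.59 in DN1ab, and between 14.5 and 48.4 in every library of the other 5 populations. DN1e was thus below all other libraries. Against ImmV2 (14.5 and 25.7 FPKM) its log2 difference was -3.68 ± 1.08 (SE), with a limma adjusted p of 0.183, and the F test gave an adjusted p of 0.146. Uqcrq had 151 and 185 FPKM in ImmV2 and 0.01, 2.52 and 50.2 in DN2, with no overlap and a log2 difference of -4.89 ± 1.33 (SE; limma adjusted p = 0.241). Without DN2 3 the difference was -6.48 and was called (limma adjusted p = 0.0366). The core subunits Uqcrc1 and Uqcrc2 were at 1 FPKM or more in few libraries, Uqcrc1 in DN1ab 2, DN1d 2, DN2 1 and DN4 3 at 7.31 to 22.8 FPKM.

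Complex IV, cytochrome c oxidase, has subunits with a common form and forms known from muscle, testis or lung. The 10 common subunits were at 10 FPKM or more in 48.3% of their values, and the 8 tissue forms in 6.94%. Cox6b1, Ndufa4 and Cox7b had the highest mean log2 levels. Cox6b1, which faces the intermembrane space, had 186, 179 and 107 FPKM in DN1e, 116 and 88.4 in DN1ab, 93.0 and 63.9 in DN1d, and 16.3 and 55.5 in ImmV2. It had 47.4, 38.1 and 56.3 FPKM in DN1 ckit+, 20.8, 27.0 and 29.9 in DN2, and 76.1, 58.7 and 40.3 in DN4. DN1ab, DN1d and DN1e lay above ImmV2 without overlap, but the largest of these differences, 2.30 ± 1.02 (SE, log2) in DN1e, did not pass the test (limma adjusted p = 0.450). Ndufa4, now counted as a complex IV subunit, was 77.1 to 433 FPKM in 14 libraries and was listed at the lowest value in DN1ab 2, ImmV2 2, DN2 1 and DN2 2.

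The isoform pairs of complex IV were uneven from library to library. Cox6a1, the common form, reached 1 FPKM in 11 libraries and 383 FPKM in DN1e 1, and the muscle form Cox6a2 reached it in 6 libraries, with 144 FPKM in DN1e 2 and 16.7 in DN1ab 2. Cox6b2, known from testis, had 39.4 FPKM in DN4 1 and 30.0 in DN1e 3. Cox7a2, the common form, ranged from the lowest value to 103 FPKM (DN1ab 2), and the muscle form Cox7a1 to 21.6 FPKM (DN1 ckit+ 1). Cox7a2l, which helps to join complexes III and IV, had 74.0 FPKM in DN2 1, 54.8 in DN2 2, 22.3 in DN4 3 and at most 3.59 in the other libraries. Cox8c, known from testis, reached 192 FPKM in DN1e 1 and at most 15.5 FPKM elsewhere. Cox4i2, Cox7b2 and Cox8b did not pass the filter of 1 FPKM in 2 libraries, so 89 of the 92 genes were tested. Ndufa4l2, a relative of Ndufa4, was above the lowest value only in DN1ab 1 (1.46 FPKM) and the DN1d libraries (0.086 and 3.56).

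Cox8a, the common form of a small complex IV subunit, came closest to a call after Sdhaf1 in the comparisons of 2 populations. It had 31.9, 14.5 and 49.7 FPKM in DN4, 0.0345, 0.0293 and 0.01 in DN1 ckit+, 0.0644, 0.063 and 0.551 in DN2, and the lowest value in both ImmV2 libraries. It had 3.17 and 1.81 FPKM in DN1ab, 10.1 and 0.01 in DN1d, and 4.61, 0.0118 and 0.99 in DN1e. All 3 DN4 libraries, DN4 3 included, lay above every other library. DN4 exceeded DN1 ckit+ by 4.85 ± 0.98 (SE, log2), with a limma adjusted p of 0.0529 that ran from 0.025 to 0.196 over the alternatives, 6 of which called it. Against DN2 the difference was 4.61 ± 0.98 (limma adjusted p = 0.169), and the F test gave an adjusted p of 0.0948. Without DN4 3 the Cox8a differences were 4.46 (limma adjusted p = 0.145) and 4.23 (limma adjusted p = 0.282), and the F test gave a limma adjusted p of 0.292. Cox6c, another common subunit, had 7.96, 118 and 116 FPKM in DN4, 4.49, 11.6 and 65.8 in DN2, and 5.05, 7.39 and 2.13 in DN1 ckit+. It was lower in ImmV2, at 0.167 and 0.445 FPKM, and at most 0.0602 FPKM in all DN1d and DN1e libraries. The log2 difference of Cox6c between DN4 and ImmV2 was 5.27 ± 1.34 (SE), with a limma adjusted p of 0.166, and without DN4 3 it was 4.65 (limma adjusted p = 0.407). In the F test Cox6c came closer to a call than Cox8a, with a limma adjusted p of 0.0869 (0.215 without DN4 3).

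Complex V makes ATP, with a catalytic F1 head and a membrane part, Fo, joined by stalks. Atp5e, the epsilon subunit of the head, had the highest mean log2 level of all 92 genes and ranged from 18 FPKM (ImmV2 1) to 473 FPKM (DN1e 1). Atp5k, a small Fo subunit, ranged from 1.15 FPKM (DN1e 3) to 274 FPKM (DN1e 2), both within DN1e. The catalytic subunit Atp5b had 0.0716, 4586 and 3590 FPKM in DN4 1 to 3. No other library exceeded 85.0 FPKM of Atp5b (DN1ab 1), so DN4 held both its highest values and its second lowest. The log2 difference between DN4 and DN2 was 6.95 ± 2.37 (SE), with a limma adjusted p of 0.615. Without DN4 3 it was 5.05 (limma adjusted p = 0.993). Without DN4 1 it was 10.91 and was called (limma adjusted p = 0.00791). Atp5a1, the other main head subunit, reached 247 FPKM in DN4 3, 1.13 in DN4 2 and under 1 FPKM in all other libraries.

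Subunit c, which forms the rotor ring, is encoded by Atp5g1, Atp5g2 and Atp5g3 with the same mature protein. Atp5g2 was the most regular, at 1 FPKM or more in 17 libraries and up to 122 FPKM (DN1ab 2). Atp5g1 reached at most 50.4 FPKM (DN1e 3) and was split within 4 populations. Atp5g3 was listed at the lowest value in all libraries but 3, which were DN2 1 (149 FPKM), DN2 2 (15.2 FPKM) and DN4 3 (243 FPKM). Atp5l, subunit g, has close copies in Atp5l-ps1 and Atp5l2, and reads may be split between them. In the 14 libraries where both Atp5l and Atp5l-ps1 reached 1 FPKM, their levels differed by at most 1.44 times. In DN1ab 1, DN4 1 and DN4 2, Atp5l had 96.8, 40.3 and 25.8 FPKM while Atp5l-ps1 was at the lowest value. Atp5l and Atp5l2 both reached 1 FPKM in 15 libraries and differed there by up to 74.1 times (median 1.07). The possible split of reads leaves the values of these genes uncertain. Atp5l had 111, 108 and 126 FPKM in DN1e and 96.8 and 95.0 in DN1ab, and in ImmV2 it had 56.1 FPKM and, in ImmV2 1, the lowest value. Its log2 difference between DN1e and ImmV2 was 3.93 ± 1.33 (SE; limma adjusted p = 0.285), and leaving out ImmV2 2, which leaves a lone library at the lowest value, turned it into a call (limma adjusted p = 0.00745).

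**Figure D3:**
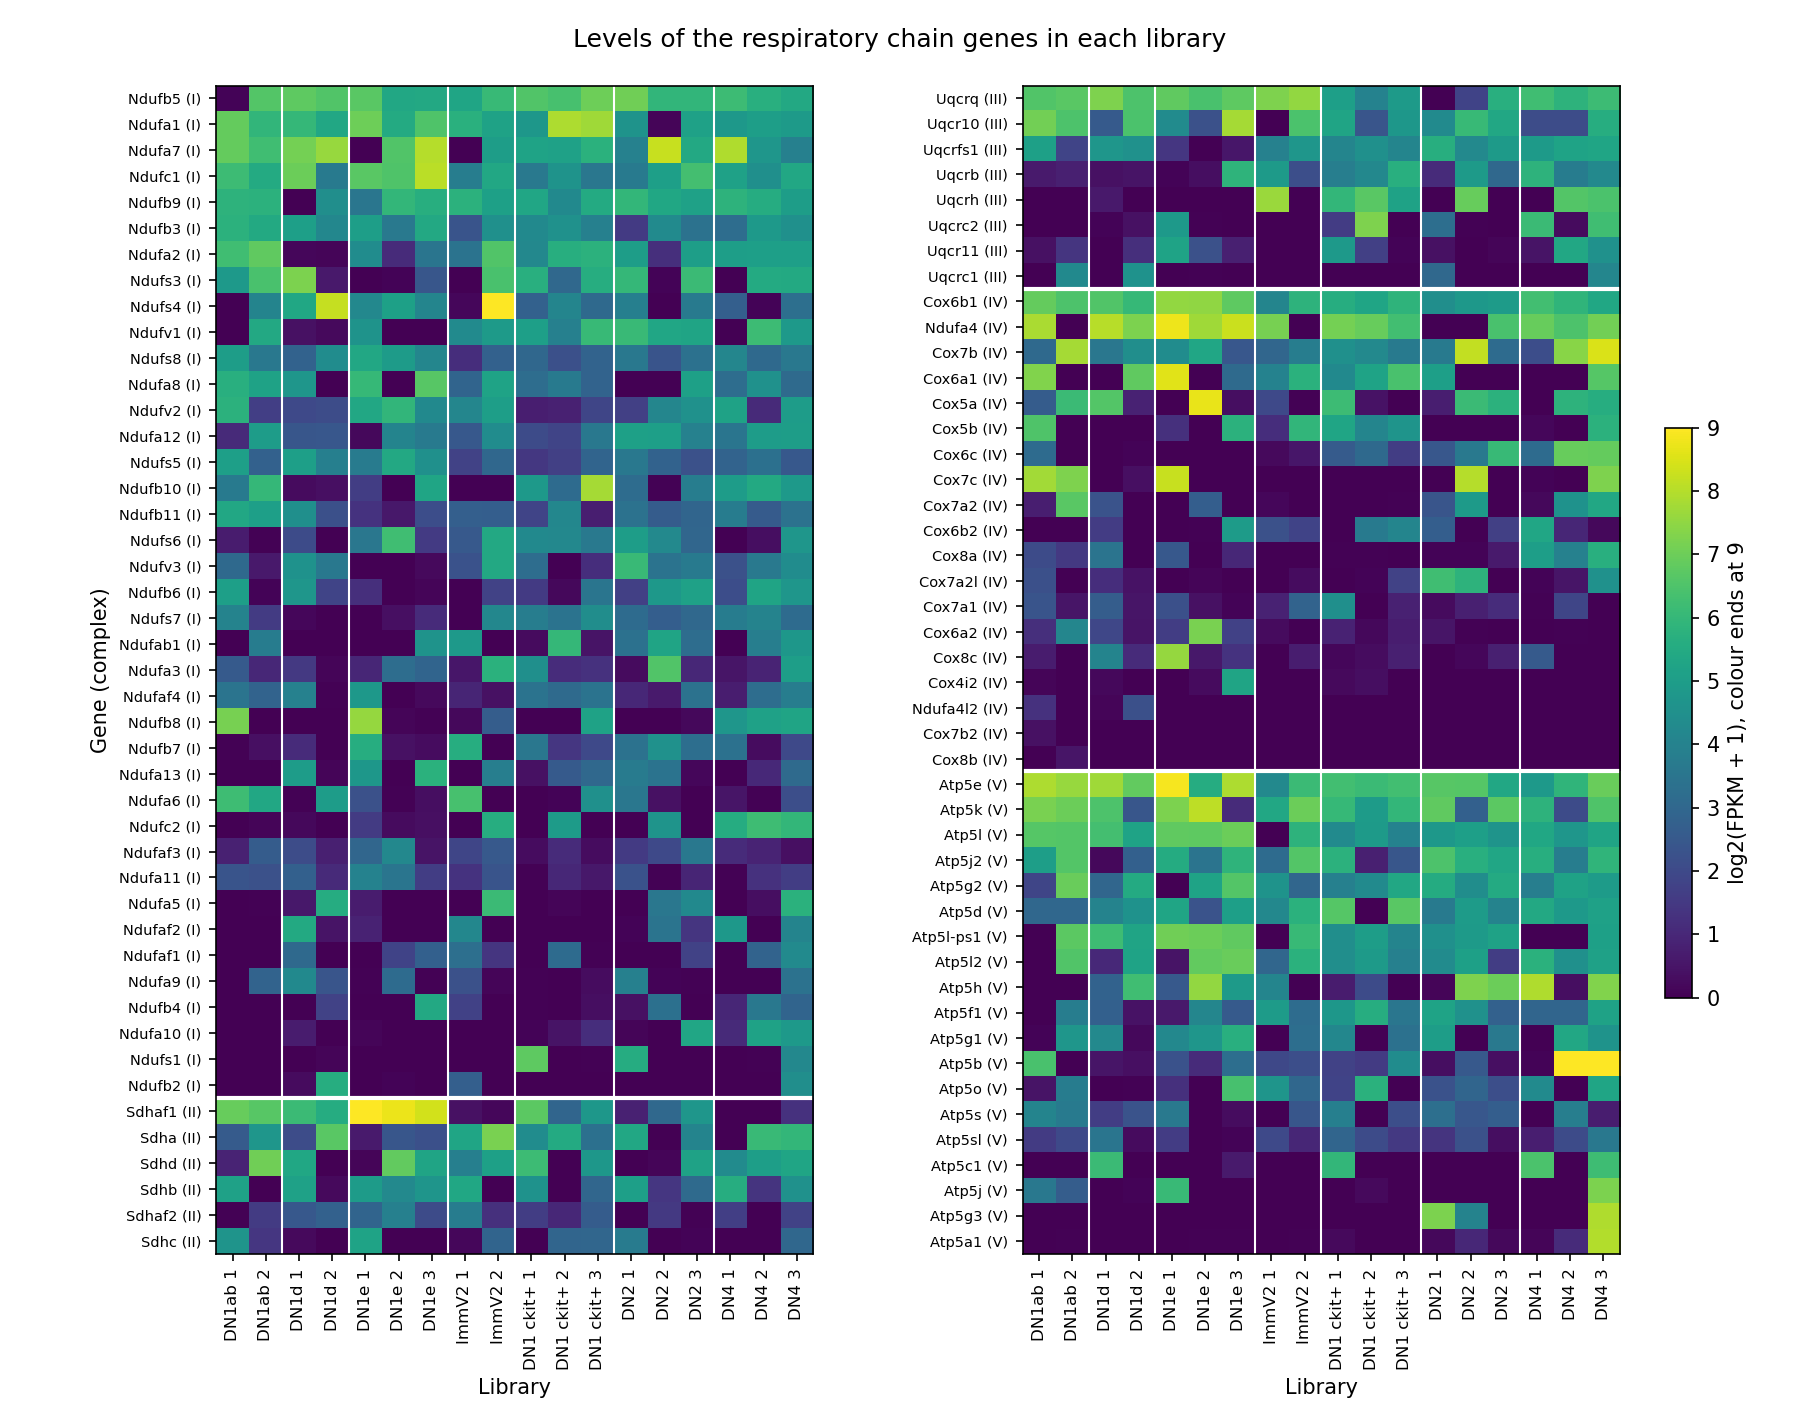
Level as log2(FPKM + 1) (colour, ending at 9) of 91 of the 92 respiratory chain genes (rows, complex in brackets) in the 18 libraries (columns), rows ordered by mean level within a complex. DN4 3, the last column, is filled in nearly all rows of common subunits, and Sdhaf1, the first row of complex II, is brightest in the 3 DN1e libraries.

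Few members were called, and few of all genes were, at most 0.591% in a comparison of 2 populations. Counts of 0 or 1 among 89 members therefore do not set them apart from other genes. No member was called in DN1ab, DN1d, DN1 ckit+, DN2 or DN4 against ImmV2, where limma called 0.396%, 0.277%, 0.330%, 0.188% and 0.249% of all genes tested. Those comparisons held 5, 6, 3, 3 and 6 members at an unadjusted p under 0.05, which is 5.62%, 6.74%, 3.37%, 3.37% and 6.74% of members against 7.74%, 6.90%, 7.23%, 6.92% and 7.03% of all genes. DN1e against ImmV2 had the call of Sdhaf1 and 8 members at an unadjusted p under 0.05 (8.99% against 10.2%). The steps within the double-negative series had no call by limma either, with 0.0612% of all genes called for DN2 against DN1 ckit+, 0.0815% for DN4 against DN2 and 0.208% for DN4 against DN1 ckit+. They held 5 (5.62%, against 5.94% of all genes), 9 (10.1%, against 5.44%) and 7 (7.87%, against 7.10%) members at an unadjusted p under 0.05. In the F test 10 of 89 members had an unadjusted p under 0.05 (11.2%), against 11.3% of all genes. With both directions pooled, the members' share at an unadjusted p under 0.05 was above that of all genes in DN4 against DN2 and DN1 ckit+. It was below in the other 7 comparisons. With DN4 3 included, all 6 members in DN4 against ImmV2 were higher in DN4 (6.74%, against 2.92% of all genes) and 0 lower (against 4.10%). In DN4 against DN1 ckit+, 6 were higher (6.74%, against 3.49%) and 1 lower (1.12%, against 3.62%). These directional counts are given only with DN4 3 in the fit. In DN4 against DN2 the counts higher and lower changed without DN4 3, as given below. The 6 comparisons with ImmV2 share its 2 libraries.

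DN4 had the largest median differences. The 89 genes had a median log2 difference of 0.51 for DN4 against ImmV2, 0.41 against DN2 and 0.62 against DN1 ckit+, where the median of all genes was between 0 and 0.00816. Without DN4 3 the medians were 0.16, -0.00246 and 0.07 over 88 genes. Without ImmV2 2 the median against ImmV2 was 1.17, and without ImmV2 1 it was 0.24. In DN4 against DN2, 8 of the 9 members at an unadjusted p under 0.05 were higher in DN4 (8.99%, against 2.87% of all genes) and 1, Sdhaf1, was lower (1.12%, against 2.57%). Without DN4 3, 4 were higher (4.55%, against 3.14% of all genes) and 5 lower (5.68%, against 2.02%). The median differences from ImmV2 were 0.34 in DN1ab, 0.23 in DN1d, 0.10 in DN1e, 0.06 in DN1 ckit+ and 0.17 in DN2. Without ImmV2 2 they were 0.61, 0.22, 0.61, 0.35 and 0.57, and without ImmV2 1 they were 0.00, except for -0.07 in DN1 ckit+. The median was also below 0 in DN1d without DN1d 1 (-0.04) and in DN1 ckit+ without DN1 ckit+ 3 (-0.02).

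**Figure D4:**
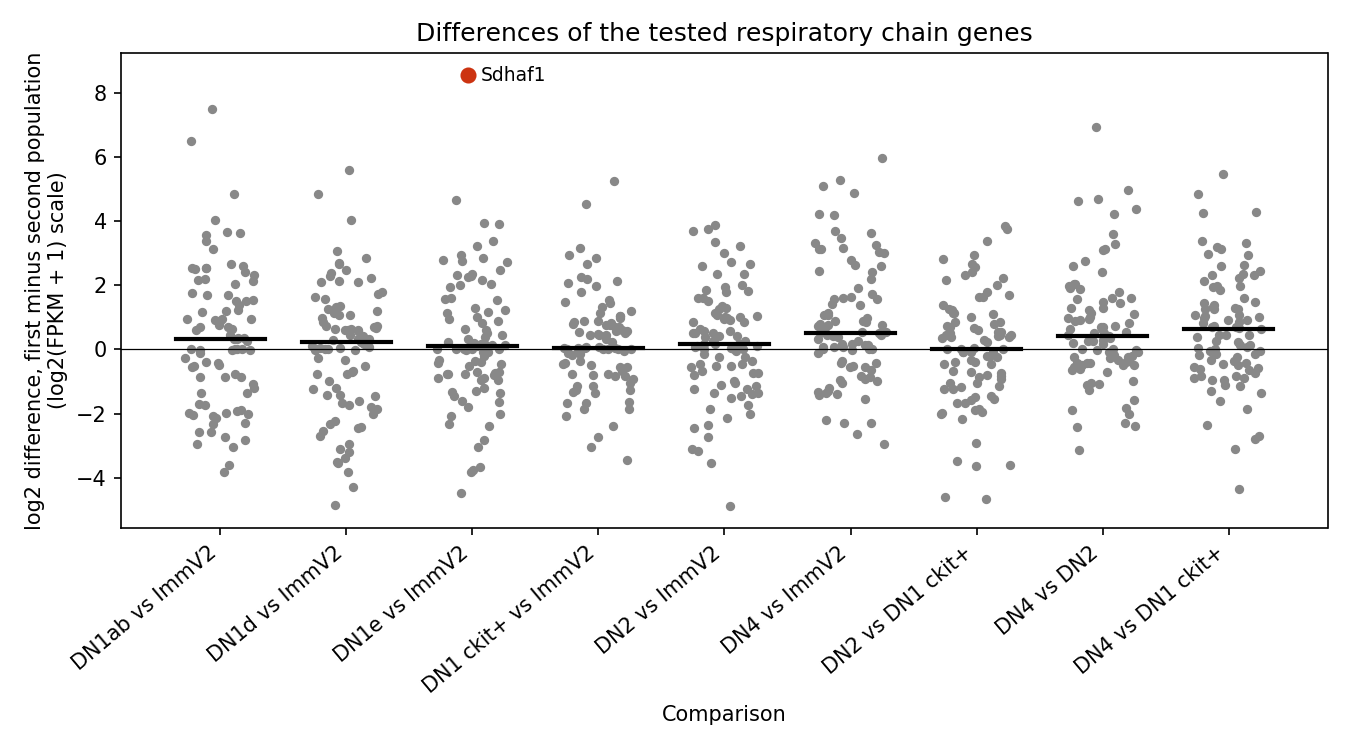
Log2 difference on the log2(FPKM + 1) scale (vertical) of the 89 tested respiratory chain genes (points) in 9 comparisons (horizontal), with the median as a bar. Sdhaf1 in DN1e against ImmV2, at 8.57, is the only call in the fit plotted, and the 3 medians of DN4, 0.41 to 0.62 here, are -0.00246 to 0.16 without DN4 3.

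Genes whose libraries did not overlap between populations were counted as well. In DN1ab 23 members lay above ImmV2 without overlap (25.8%, against 14.9% of all genes) and 7 lay below (7.87%, against 13.9%). In DN1d 16 of 89 lay above and 16 below, against 12.9% and 13.0% of all genes. In DN1e 14 lay above (15.7%, against 9.67%) and 6 below (6.74%, against 11.6%). For DN4 against ImmV2, 13 lay above (14.6%, against 10.6%) and 3 below (3.37%, against 9.99%). The share above was thus larger than that of all genes in these 4 populations. DN1 ckit+ had 9 above (10.1%, against 11.0%) and 4 below (4.49%, against 10.2%), and DN2 had 7 above (7.87%, against 8.95%) and 5 below (5.62%, against 9.66%). In both, the share was smaller than that of all genes in each direction. For DN4 against ImmV2 without DN4 3, 15 lay above (16.9%, against 15.6%) and 11 below (12.4%, against 13.6%). In DN2 against DN1 ckit+, 5 lay above (5.62%, against 5.41%) and 3 below (3.37%, against 5.83%). In DN4 against DN2, 9 lay above (10.1%, against 5.16%) and 1 below (1.12%, against 4.50%), and without DN4 3 these were 9 (against 9.54%) and 6 (6.74%, against 7.35%). In DN4 against DN1 ckit+, 8 lay above (8.99%, against 7.35%) and 3 below (3.37%, against 7.23%), and without DN4 3 these were 11 (12.4%, against 11.7%) and 13 (14.6%, against 10.4%). The surplus of genes higher in DN4 was thus smaller, relative to all genes, without DN4 3.

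Other genes of the same processes were counted by lists. The 13 subunits encoded in mitochondrial DNA were almost all at the lowest value: mt-Nd2, mt-Nd3, mt-Nd6, mt-Cytb and mt-Co2 in all 18 libraries, and 0 to 4 of the 13 at 1 FPKM or more in a library. They therefore give no measure of mitochondrial RNA here. Of 33 further nuclear genes of the chain and its assembly that were tested, limma called none in any of the 9 comparisons, and 0 to 2 per comparison had an unadjusted p under 0.05. Cyc1, cytochrome c1 of complex III, was at 1 FPKM or more in all 18 libraries and was chosen here after its values were seen. It had 67.5, 74.1 and 61.2 FPKM in DN4, 11.5 and 12.7 in ImmV2 and at most 43.3 in the other libraries, with a log2 difference of 2.38 ± 0.94 (SE) between DN4 and ImmV2 and a limma adjusted p of 0.578. DN4 3 was the lowest of the 3 DN4 libraries for Cyc1, and without it the difference was 2.45 (limma adjusted p = 0.747). None of the 19 tricarboxylic acid cycle genes or 23 glycolysis genes tested was called by limma in any comparison, and 0 to 3 genes of each list had an unadjusted p under 0.05 in a comparison. Over all genes tested, 5.44% to 10.2% had an unadjusted limma p under 0.05 in a comparison, and at most 0.591% were called. At such shares lists this short would hold few or no called genes, so the missing calls say little about these processes. Of 19 regulators of mitochondrial gene expression, Ppargc1a, a coactivator of mitochondrial biogenesis, was called higher in DN1ab than in ImmV2. Ppargc1a had 26.3 and 41.8 FPKM in DN1ab and 0.01 and 0.21 in ImmV2, a log2 difference of 4.95 ± 0.90 (SE) with a limma adjusted p of 0.0204. The call ended without ImmV2 1 (limma adjusted p = 0.0723), with a pseudocount of 0.1 FPKM or none (limma adjusted p of 0.169 and 0.415) and with only the libraries of DN1ab and ImmV2 in the fit (limma adjusted p = 0.561). Its levels were at most 4.68 FPKM in the other libraries.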

How the data were processed

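The authors deposited log2 FPKM, with 1 row per gene symbol. The submitters' processing notes name Bowtie and the mouse build mm8; versions, quantifier, annotation and normalization are not stated in them or in the labels, and a shared scale set by rank would make a value follow the gene's rank within its library. Values were converted to FPKM, 1 FPKM was added and log2 taken again, which understates differences of low genes. A gene was tested where 2 or more libraries reached 1 FPKM, which 24525 genes did. The test was limma 3.58.1 in R 4.3.3, two-sided (eBayes with a trend, all 18 libraries in 1 fit), and p-values were adjusted by Benjamini-Hochberg over every gene tested. A call needed an adjusted p under 0.05 and, for a pair of populations, an absolute log2 difference of at least 1. There were 9 comparisons and an F test. The fit was tested on simulated data. Alternatives were the pseudocount (0.1, 5 or none), the filter (none, or 5 FPKM in 3 libraries), quantile normalization, no trend, a replicate block, only the populations compared, and each library left out. No libraries were identical. Values are given per library, with no fold against a population at the lowest value throughout.

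The members and lists were chosen with earlier results of these data known. Named were called members, the 3 with the highest mean log2 level per complex (core and accessory subunits apart in complex I), isoform families, Sdha to Sdhd and up to 4 called genes of a list; other members named, such as Ndufs8, Cox6c, Ndufb10 and Atp5b, were chosen after their values were seen. The values of 1 member that the rule would name are not reported here. Promoter windows came from RefSeq, a build other than that of the files.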

Additional observations from a re-analysis of the deposited data

How the results depend on the processing

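Of 269 recomputed counts of called members, 240 stayed within 1.5 times the main count and 29 did not. The main count was 0 in all comparisons except DN1e against ImmV2, where it was 1, as in the F test. Most counts that stayed were therefore 0 again, so the 240 are little sign of stable results. The sign was followed only for chosen differences of Sdhaf1, Cox8a, Cox6c, Uqcrfs1 and Uqcrq, and none of these reversed. The signs of other differences were not followed. With the filter removed, 1 member was called in DN1ab against ImmV2 and 1 in DN4 against DN1 ckit+, and with no trend these counts were 1 and 1 and the F test called 3. A pseudocount of 5 FPKM, or a filter of 5 FPKM in 3 libraries, gave 1 in DN4 against DN1 ckit+. With only the libraries of the 2 populations, DN1e against ImmV2 had 0. Leaving out each library gave 0 to 1 called members in DN1ab, DN1d, DN2 and DN4 against ImmV2, 1 to 2 in DN1e against ImmV2, 0 to 1 in DN4 against DN2 and against DN1 ckit+, and 1 to 3 in the F test. The genes added were Atp5l (without ImmV2 2), Atp5b and Cox6c (without DN4 1), Cox8a (without either DN1d library), Ndufa4l2 (without DN1d 1), Uqcrq (without DN2 3), Uqcrfs1 (without DN1ab 1) and, for DN1ab against ImmV2, Sdhaf1 (without DN1 ckit+ 2, DN2 1 or DN2 3). Leaving out ImmV2 2, which leaves a lone ImmV2 library, also raised the number of all genes called in each comparison with ImmV2. Leaving out DN1d 1 raised it in DN1d against ImmV2. The cause of the added member calls was not tested. The values showed no pairing of libraries by replicate number. Over 48 pairs with the same number, the correlation of deviations lay between -0.0164 and 0.0174. Over 90 pairs with different numbers it lay between -0.0224 and 0.0224, and 3 of 18 libraries correlated best with their own number. Deviations within a population sum to 0, so these pairs are not independent. With the replicate block, 1 member was called in DN1e against ImmV2, 1 in the F test and 0 elsewhere, the same counts as without it, but the members' median difference between DN1e and ImmV2 was -0.09 with the block (0.04 over all genes), against 0.10 without it. Groups of 2 or 3 libraries, unknown depth and the many genes listed at the lowest value limit every comparison.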
